A study of Mus musculus with 4 samples.

Results

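The genes described are the small nucleolar RNAs (snoRNAs) and their relatives in mouse bone marrow cultures given heme. They were chosen by name alone, as genes whose symbol begins with Snora, Snord, Scarna, Rny or Rnu followed by a digit and whose probe set on the array carries that single symbol. This gave 61 of the 19938 named genes, made up of 20 Snora genes (H/ACA box snoRNAs), 31 Snord genes (C/D box snoRNAs), 3 Scarna genes, 2 Rny genes (Y RNAs) and 5 Rnu genes (U RNAs). Where a gene had more than 1 probe set, as 6 of the 61 did, the brightest was used. The rule itself uses names only.

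The values came from 4 microarrays of total RNA from bone marrow cells grown with 20 ng/ml GM-CSF, a growth factor, in medium with 10% serum. The marrow was wild type or labelled as homozygous for a Bach1 knockout, both on the B6 background. After 6 days the cultures received heme at 40 µM, written with a lower-case m in the labels, or its vehicle, 0.15 M NaCl with 10% NH4OH. RNA was taken after 24 hours from the cells that still adhered. The 4 groups were thus wild-type vehicle, wild-type heme, labelled knockout vehicle and labelled knockout heme, with 1 array each. The spread between replicate cultures is therefore unknown, and no test or p-value is possible. The number of mice behind each culture was not given in the sources used here. Bach1 is a transcriptional repressor that loses its DNA binding when it binds heme, and the title of the series is about heme, Bach1 and derepression of the gene Spic.

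Box C/D snoRNAs guide ribose methylation of ribosomal RNA, and box H/ACA snoRNAs guide the change of uridine to pseudouridine, each inside a small particle of conserved proteins. Most are cut from the introns of host genes after splicing, so a host transcript yields both a spliced RNA and 1 or more snoRNAs. Small Cajal body RNAs (Scarna) do the same for spliceosomal RNAs. The U RNAs of the spliceosome and the Y RNAs, which bind the protein Ro60, are transcribed from genes of their own. RefSeq's gene table for GRCm38.p6 held all 61 genes, with lengths from 45 to 275 nucleotides and a median of 101. By that source 54 of the 61 lay inside another gene, 41 of them inside a protein-coding gene, 21 inside a gene for a ribosomal protein and 13 inside long noncoding RNAs alone. These were 47 different hosts, since the span of 3 members fell in 2 genes, and the table gives no strand. The remaining 7 lay in no listed gene.

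Hosts of snoRNAs often begin in a run of pyrimidines, the terminal oligopyrimidine tract that marks the messages of the translation machinery. The start windows of 6 hosts are shown because a member within each was called in a heme comparison below. Hspa8, host of Snord14e, met the same condition, but no start window was found for it. Each line gives the 20 bases before and the 20 after a start site in the RefSeq promoter table of GRCm38.p6, read 5′ to 3′ on the strand named, with the longest pyrimidine run in capitals.
Rpl27a, host of Snora3, chr7:109519175-109519214, plus strand: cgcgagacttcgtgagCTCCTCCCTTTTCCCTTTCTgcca
Rps12, host of Snora33, chr10:23787190-23787229, minus strand: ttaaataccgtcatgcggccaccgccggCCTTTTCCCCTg
Rpl23, host of Snora21, chr11:97782420-97782459, minus strand: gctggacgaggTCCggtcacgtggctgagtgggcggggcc
Rpsa, host of Snora62, chr9:120127746-120127785, plus strand: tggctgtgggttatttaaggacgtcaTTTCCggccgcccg
Rps3a1, host of Snord73b, chr3:86142649-86142688, minus strand: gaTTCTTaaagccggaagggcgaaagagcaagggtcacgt
Wdr43, host of Snord53, chr17:71616195-71616234, plus strand: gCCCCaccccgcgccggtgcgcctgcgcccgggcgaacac
The longest run was 20 bases for Rpl27a, 11 for Rps12, 5 for Rpsa and Rps3a1, 4 for Wdr43 and 3 for Rpl23. Of 35 start windows found for 33 of the 47 hosts, 12 (34.3%) held an uninterrupted run of C or T of at least 8 bases on the coding strand. Among all 32851 start windows of 27025 genes in the same table, 5272 (16%) did. The run could lie anywhere in the window, also before the start site, as it does for Rps3a1, Wdr43 and Rpl23. These shares are therefore not shares of messages that begin in a pyrimidine run. Such a run is a description of the letters and says nothing on how a host was translated here.

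Signals were linear intensities after RMA, and the median signal per array lay between 30.4 and 31.4 over 35556 probe sets. All 7 macrophage markers examined were at level, as defined below, while 0 of 4 T cell, 0 of 2 B cell, 0 of 2 NK cell and 0 of 4 mast cell markers were. Of 5 fibroblast and endothelial markers 2 were at level, Col1a1 and Pecam1, and of 2 erythroid markers 1 was, Epor. The summed signal of the 5 was 139.9, 180.3, 147.0 and 135.7, in the order wild-type vehicle, wild-type heme, labelled knockout vehicle and labelled knockout heme. The summed signal of 7 dendritic cell markers was 10529.9 and 8226.4 on the wild-type vehicle and heme arrays and 3518.3 and 2865.0 on the labelled knockout ones. Of these 7, 5 were at level, Itgax, Cd74, H2-Aa, H2-Ab1 and H2-Eb1, while Flt3 and Zbtb46 were not. The summed signal of 6 neutrophil markers, 5 of them at level, was higher with heme in both genotypes. It was 8373.9 and 11242.7 in wild type and 6349.9 and 8634.1 in the labelled knockout. In the same order the Bach1 probe set read 212, 264, 211 and 204, and it did not separate the genotypes, and where it lies relative to the deleted sequence was not given in the sources used here. The labelled knockout arrays therefore rest on their labels. Hmox1, the heme oxygenase gene that Bach1 represses, read 1827 on the wild-type vehicle array and between 9047 and 10330 on the other arrays. Spic, the gene in the title of the series, read 17.0, 429, 298 and 679 in the same order as Bach1.

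Below, 4 signals in a row always stand in the order wild-type vehicle, wild-type heme, labelled knockout vehicle and labelled knockout heme. Differences are on the log2 scale. A gene was at level when its brightest array in the comparison stood at 31.0, the median of all values, or above, and it was called higher or lower when it was also at least 2-fold different. Since noise on an array depends on signal, each member was also set against protein-coding genes of equal signal, taken in 20 bins of mean log2 signal. A member stood outside them when its difference lay beyond the central 95% of its bin, which 5% of coding genes do by construction. Of the 61 members, 39 were at level on at least 1 array and 22 on none. Without a detection call in the files, the distance of dim members from background is unknown.

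In wild-type cultures, heme came with Y RNA and U RNA signals above those of vehicle, while the snoRNAs went both ways. The median log2 heme difference was 0.92 over the 5 Rnu genes, 1.20 over the 2 Rny genes, 0.39 over the 3 Scarna genes, 0.06 over the 31 Snord genes and -0.01 over the 20 Snora genes. The median over coding genes was -0.01. All 10 Scarna, Rny and Rnu genes lay above 0, and 6 of the 10 stood outside the coding genes of equal signal. Of all 61 members, 9 (14.8%) were at least 2-fold different, 5 higher and 4 lower. The background, counted over all 19938 genes in the same way, was 1.27%, 0.702% higher and 0.572% lower. At level the count was 7 of 38, 4 higher and 3 lower, where the background was 2.06% of 10772 genes, 1.17% higher and 0.891% lower. The robust SD of the 61 log2 differences was 0.56, 2.17 times that of coding genes of equal signal (0.26), and 21 members (34.4%) stood outside them.

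**Figure D1:**
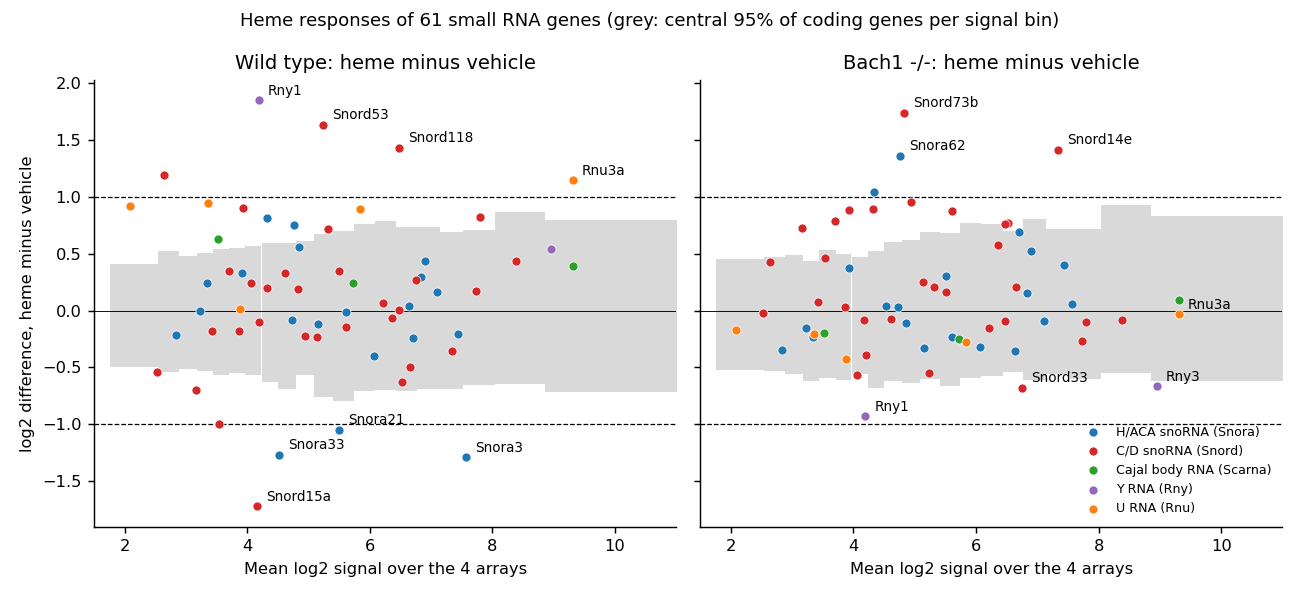
Log2 heme-minus-vehicle difference of each of the 61 small RNAs (y axis) against its mean log2 signal over the 4 arrays (x axis), for each genotype, with colour giving the class, the grey band the central 95% of coding genes in 20 bins of signal and dashed lines a 2-fold difference. In wild type 21 members and in the labelled knockout 16 lie outside the band, at low and at high signal.

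The Y RNAs bind Ro60 in a particle that surveys misfolded RNA. Rny1 read 10.5, 38.1, 23.0 and 12.1. The wild-type heme array was the highest and the wild-type vehicle array the lowest, with a 3.61-fold heme difference in wild type (log2 1.85). With 16 added to each signal before log2 it was 1.03, and with 32 added 0.72, short of 2-fold. In the labelled knockout the heme array lay below the vehicle array, by -0.93, with both arrays below level. Rny3 read 396, 575, 649.6 and 409, which is the same order of treatments within each genotype, with smaller gaps. Its heme difference was 0.54 in wild type, inside the range of coding genes of equal signal, and -0.67 (1.59-fold lower) in the labelled knockout, outside it.

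U3, the product of Rnu3a, is a C/D box RNA that acts in early cuts of the ribosomal RNA precursor and not in the spliceosome, despite its name. Rnu3a read 349, 773, 785 and 767. The wild-type vehicle array stood alone, at 2.22-fold below wild-type heme (log2 1.15), while the other arrays lay close to each other. In the labelled knockout heme and vehicle differed by only -0.03. U12 is the RNA of the minor spliceosome that pairs with the branch site. Rnu12 read 40.0, 74.6, 65.8 and 54.3, which is a 1.86-fold heme difference in wild type (0.90) and one of -0.28 in the labelled knockout.

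The other U RNA genes were dim. Rnu5g, for a form of U5 of the spliceosome, read 7.57, 14.6, 10.8 and 9.34. Rnu6, for U6 of the spliceosome's catalytic core, read 2.87, 5.45, 4.79 and 4.26. Both were below level on every array, although their log2 heme differences in wild type (0.95 and 0.92) stood outside those of coding genes of equal signal. Rnu7, for the U7 RNA that processes histone messages, read 15.4, 15.6, 16.3 and 12.1, with a heme difference of 0.02 in wild type.

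Among the Cajal body RNAs, Scarna17 read 559, 733, 613 and 654, well above level, and its heme difference was 0.39 for wild type and 0.09 for the labelled knockout. Scarna13, the longest member at 275 nucleotides, read 43.0, 50.8, 64.9 and 54.7. Scarna8 read 8.10, 12.5, 14.0 and 12.2 and was below level throughout. In each of the 3 the wild-type vehicle array was the lowest.

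That order held through nearly all of the 10 Scarna, Rny and Rnu genes. The wild-type vehicle array was the lowest of the 4 arrays in 9 of the 10, the exception being Rnu7, whose lowest was labelled knockout heme. It was the lowest in 24.9% of coding genes and in 13 of the 51 Snora and Snord genes (25.5%). The highest array was wild-type heme for 5 of the 10 and labelled knockout vehicle for the other 5. Only 3 of the 10 had the wild-type vehicle array lowest by at least 0.5 log2 (0.749% of coding genes), so that for the rest of those 9 the order rested on a smaller gap. Because every comparison of the wild-type vehicle array shares that array, the heme difference in wild type and the genotype difference in vehicle are not independent of each other.

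**Figure D2:**
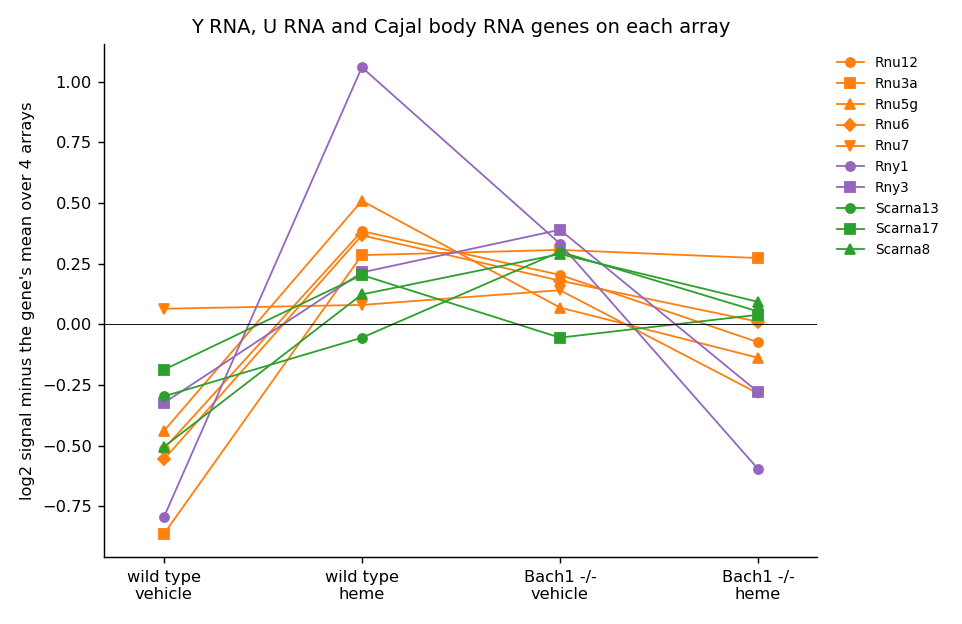
Log2 signal of the 10 Scarna, Rny and Rnu genes on each of the 4 arrays (x axis), drawn as the difference from the gene's own mean over the arrays (y axis), 1 line per gene. The wild-type vehicle array is the lowest point of 9 of the 10 lines, and Rny1 has the widest swing, from 10.5 on that array to 38.1 on wild-type heme.

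Of the C/D box snoRNAs, Snord118 and Snord53 were called higher with heme in wild type. Snord118 is U8, which has a gene of its own and is needed for maturation of the RNAs of the large ribosomal subunit. It read 69.1, 187, 53.8 and 91.2, a 2.70-fold heme difference in wild type (1.43) and a 1.70-fold one in the labelled knockout (0.76). Both genotypes thus went the same way, and both differences stood outside the coding genes of equal signal. Snord53, in Wdr43, whose start is shown above and whose protein acts in small-subunit assembly, read 24.7, 76.8, 39.3 and 26.8. Its heme difference was 3.11-fold for wild type (1.64, and 0.94 with 32 added to each signal), and -0.55 for the labelled knockout. Snord47, a Gas5 snoRNA, read 173, 306, 224 and 209, a heme difference of 1.77-fold in wild type (0.82) and of -0.10 in the labelled knockout.

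The H/ACA snoRNAs called in wild type were lower with heme, and all 3 lie in ribosomal protein genes, as do 8 of the 20 Snora genes. Snora62, in the ribosomal protein gene Rpsa, stood the other way, at 0.75. Snora3, in Rpl27a, read 291, 119, 190.4 and 198, 2.45-fold lower with heme in wild type (-1.29). Snora33, in Rps12, read 31.9, 13.3, 25.4 and 26.2, 2.41-fold lower (-1.27). Snora21, in Rpl23, read 85.4, 41.3, 31.3 and 38.6, 2.07-fold lower (-1.05). For Snora3 and Snora33 the wild-type vehicle array was the highest and wild-type heme the lowest, while for Snora21 the wild-type vehicle array stood above all others. In the labelled knockout their heme differences were 0.05, 0.04 and 0.30. The dimmer of 2 Snora21 probe sets gave -0.87 in wild type, short of 2-fold, and that of Snora3 gave -1.30. With 16 added to each signal before log2, Snora21 (-0.82) and Snora33 (-0.71) lost their calls.

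Several members near the lines turned on small amounts. Snord15a, in Rps3, read 30.9, 9.36, 19.5 and 18.4. It was 3.31-fold lower with heme in wild type (-1.73) but missed the level rule, its brightest signal lying just under the median of all values. Snord42b, at 14.7 on vehicle and 7.35 on heme, lay just short of 2-fold lower, and Snord38a was at 0.91, both below level. Snord52, chosen after its values were seen, was 2.29-fold higher with heme in wild type, at 4.74 against 10.8.

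In the labelled knockout the members at 2-fold were all higher with heme, and 0 of them were also at 2-fold in wild type. Of the 13 members at 2-fold in either genotype, 6 had the same sign in both. Among coding genes, 58 of the 359 at 2-fold in either genotype were so in both. Of the 61 members 4 were at least 2-fold higher and 0 lower, against a background of 1.06%, with 0.737% higher and 0.326% lower. At level the count was 3 higher and 0 lower of 35 (background 1.65%, with 1.2% higher and 0.452% lower). The median log2 difference was 0.03 over all 61, 0.04 over Snora, 0.21 over Snord, -0.20 over Scarna, -0.80 over Rny and -0.21 over Rnu. Of the 10 Scarna, Rny and Rnu genes 9 lay below 0, Scarna17 being the exception. The robust SD over the 61 was 0.45, 1.78 times that of coding genes of equal signal (0.25), and 16 (26.2%) stood outside those genes, 12 of them Snord genes.

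Snord73b, in Rps3a1, read 30.5, 34.9, 13.4 and 44.9, 3.34-fold higher with heme in the labelled knockout (1.74). Its labelled knockout vehicle signal was the lowest of the 4. Snord14e, a U14 snoRNA in the heat shock gene Hspa8, read 239, 187, 75.7 and 202, 2.67-fold higher with heme in the labelled knockout (1.42). There too the labelled knockout vehicle array stood alone at the bottom, and the wild-type heme difference was -0.36. U14 acts in the cuts that free small-subunit ribosomal RNA.

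Snora62, in Rpsa, read 18.8, 31.7, 18.9 and 48.5, 2.57-fold higher with heme in the labelled knockout (1.36) and 1.69-fold higher in the wild-type pair (0.75). Both vehicle arrays lay together, below both heme arrays. The labelled knockout call was lost with 16 added to each signal (0.89), and that of Snord73b with 32 added (0.76). Snora41, in Eef1b2, had the same order at a lower signal, 16.8 and 29.5 in wild type and 12.6 and 26.0 in the labelled knockout. Its labelled knockout difference of 1.04 was past 2-fold but below level. Snord49a, at 31.7, 27.1, 23.2 and 44.9, fell just short of 2-fold in the labelled knockout at 0.95.

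The heme differences of the members in the 2 genotypes, which share no array, had the same sign in 21 of 61 genes (34.4%), against 10452 of 18556 coding genes (56.3%). Across genes, Pearson's r was -0.13 and Spearman's rho -0.17 over the 61 members, and 0.33 and 0.21 over coding genes. Genes are not independent replicates, and all of them share the same 4 arrays. Of the 13 members at least 2-fold different in either genotype without regard to level, 0 were so in both and 6 had the same sign in both. Of 359 such coding genes, 58 were so in both and 301 had the same sign.

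**Figure D3:**
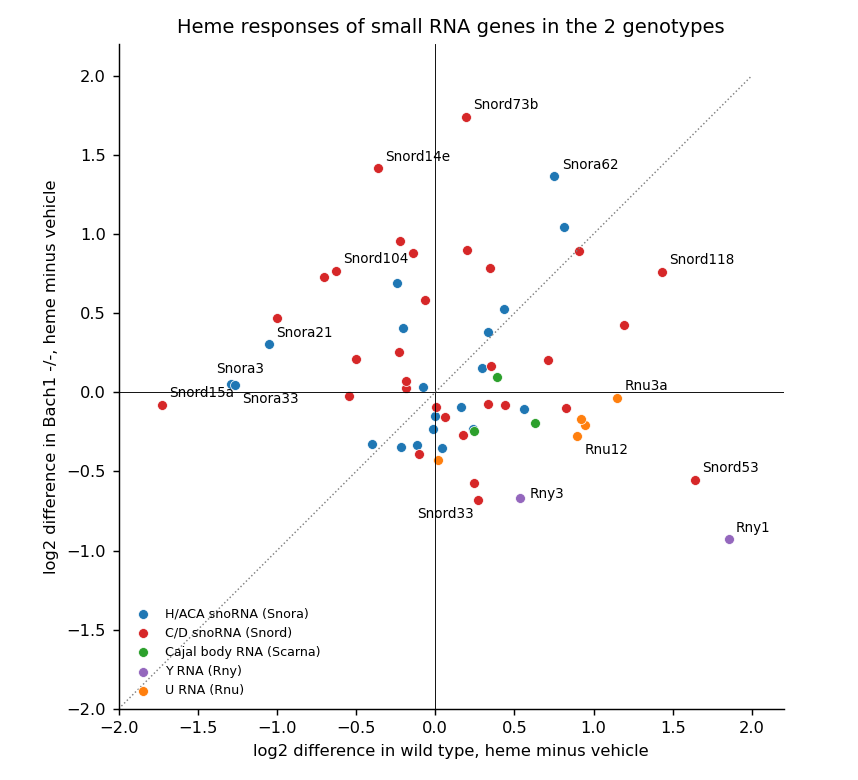
Log2 heme-minus-vehicle difference of each of the 61 members in wild type (x axis) against the labelled knockout (y axis), coloured by class, with a dotted line of equal differences. Rny1 (1.85 and -0.93) and Snord53 (1.64 and -0.55) lie to the lower right, and Snord14e (-0.36 and 1.42) and Snord73b (0.19 and 1.74) at the top.

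The difference between the 2 heme differences, labelled knockout minus wild type, was at least 2-fold in 18 of 61 members, 11 higher and 7 lower, where the background was 1.84%, with 0.928% higher and 0.908% lower. At level it was 13 of 39, 8 higher and 5 lower (background 2.04%, with 1.17% higher and 0.879% lower). The median was -1.12 over the 10 Scarna, Rny and Rnu genes, all below 0, 0.06 over Snora and 0.21 over Snord. Rny1 stood at -2.78, Snord53 at -2.19 and Snord14e at 1.78. This order rests on dim signals, such as 10.5 and 12.1 for Rny1, whose distance from background is unknown. With 16 added to each signal before log2 the values were -1.50, -1.56 and 1.58, and with 32 added -1.04, -1.22 and 1.43. Rny3 stood at -1.21, Rnu3a at -1.18 and Rnu12 at -1.17. Snord104, at 114, 73.4, 70.6 and 120.2, had a heme difference of -0.63 for wild type and 0.77 for the labelled knockout, neither at 2-fold, and stood at 1.40. Snord22, at 49.7, 45.0, 36.9 and 67.9, lay just inside the line at 1.02, and Snora23 (0.93) and Snord33 (-0.95) just outside. This quantity adds the noise of all 4 arrays and was not tested.

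Between genotypes in vehicle, the C/D box snoRNAs were mostly lower in the labelled knockout and the Scarna, Rny and Rnu genes higher. The median log2 difference, labelled knockout minus wild type, was -0.35 over the 31 Snord genes, 24 of which lay below 0, and 0.72 over the 10 Scarna, Rny and Rnu genes, all above 0. It was 0.01 over Snora. Of all 61 members 2 were at least 2-fold higher and 5 lower, against a background of 1.07%, with 0.371% higher and 0.697% lower. At level 1 was higher and 2 lower of 34 (background 1.67%, with 0.525% higher and 1.14% lower). The labelled knockout vehicle array was the lowest of the 4 in 14 of 31 Snord genes (45.2%) and in 23.4% of coding genes.

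The members called in vehicle were Rnu3a, 2.25-fold higher in the labelled knockout (1.17), Snord14e, 3.17-fold lower (-1.66), and Snora21, 2.73-fold lower (-1.45). Their signals stand above. Rny1 was 2.18-fold higher (1.13), Snord73b 2.27-fold lower (-1.18) and Snord38a, at 15.8, 29.7, 7.83 and 14.5, 2.02-fold lower (-1.02), all with both vehicle arrays below level. Snord37, in the elongation factor gene Eef2, was 2.12-fold lower (-1.08) at 13.0 against 6.13, also below level.

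With heme, the members past 2-fold between genotypes were mostly lower in the labelled knockout, but smaller differences went both ways. Of 61 members 1 was at least 2-fold higher and 5 lower, against a background of 0.963%, with 0.356% higher and 0.607% lower. At level 0 were higher and 4 lower of 38 (background 1.49%, with 0.519% higher and 0.973% lower). Rny1 was 3.15-fold lower in the labelled knockout (-1.65) and Snord53 2.86-fold lower (-1.52). Rny1 lost its call with 16 added to each signal (-0.94, and -0.67 with 32 added), and Snord53 lost it with 32 added (-0.89). Snord33, in Rpl13a, read 136, 165, 98.6 and 61.6 and was 2.67-fold lower (-1.42), its 2 labelled knockout arrays both under the wild-type ones. Snord118 was 2.05-fold lower (-1.03), just past the line, and at -0.92 with 16 added. The robust SD over the 61 was 0.59, 2.34 times that of coding genes of equal signal, and 19 (31.1%) stood outside them, 10 higher and 9 lower. At 1.5-fold and at level, 8 were higher and 7 lower.

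Snord82, in the nucleolin gene Ncl, read 248, 279.7, 189.9 and 157 and was 1.78-fold lower in the labelled knockout with heme (-0.83). Snord38a was 2.05-fold lower there (-1.04) and Snord42b 2.07-fold higher (1.05), both below level. The summed signal of the dendritic cell markers, given above, was also lower in the labelled knockout in both treatments. The part of these markers in the differences was not tested. In bulk RNA, fewer cells of a type and less RNA per cell cannot be told apart.

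Members and the genes around them could be set side by side for 30 members in 26 hosts. Hosts were assigned by span alone, without strand, so a shared transcript is not established for each pair, and Snord87, paired here with Mcmdc2, also lies in Snhg6. Most hosts differed far less than their members. In wild type the median absolute heme difference was 0.40 over the members and 0.06 over their hosts, and the member's was the larger in 23 of 30 pairs. In the labelled knockout these were 0.33, 0.11 and 26 of 30. None of the 26 hosts was at 2-fold in any comparison, and Kansl2, named after its values were seen, came nearest for heme at 0.80 and 0.92. For heme, signs did not match in 16 of 30 pairs for wild type and 11 for the labelled knockout. The 16 include the Kansl2 pair, whose member had a difference of 0 in wild type. Across the pairs Pearson's r for heme was 0.06 (Spearman's rho 0.07) for wild type and -0.02 (0.08) for the labelled knockout. Between genotypes r was 0.12 (rho 0.08) in vehicle, with opposite signs in 13 of 30 pairs. With heme it was -0.37 (rho -0.43), with opposite signs in 21 of 30. None of these was tested, and the genes share the same arrays and in part the same host.

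Rpl27a, around Snora3, read 5874, 6087, 5836 and 5745, a heme difference of 0.05 in wild type beside -1.29 for the snoRNA. Rps12 stood at 0.08 beside -1.27 for Snora33, Rpl23 at 0.03 beside -1.05 for Snora21, and Wdr43 at 0.02 beside 1.64 for Snord53. In the labelled knockout Rps3a1 stood at -0.11 beside 1.74 for Snord73b, and Rpsa at 0.13 beside 1.36 for Snora62. Hspa8, which encodes a constitutive chaperone, was somewhat higher with heme in both genotypes (0.41 and 0.48), and Snord14e differed from it at -0.36 and 1.42. Gas5, a noncoding host of many snoRNAs, read 2679, 3978, 2601 and 4141, with heme differences of 0.57 and 0.67, and Snord47 stood at 0.82 and -0.10.

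**Figure D4:**
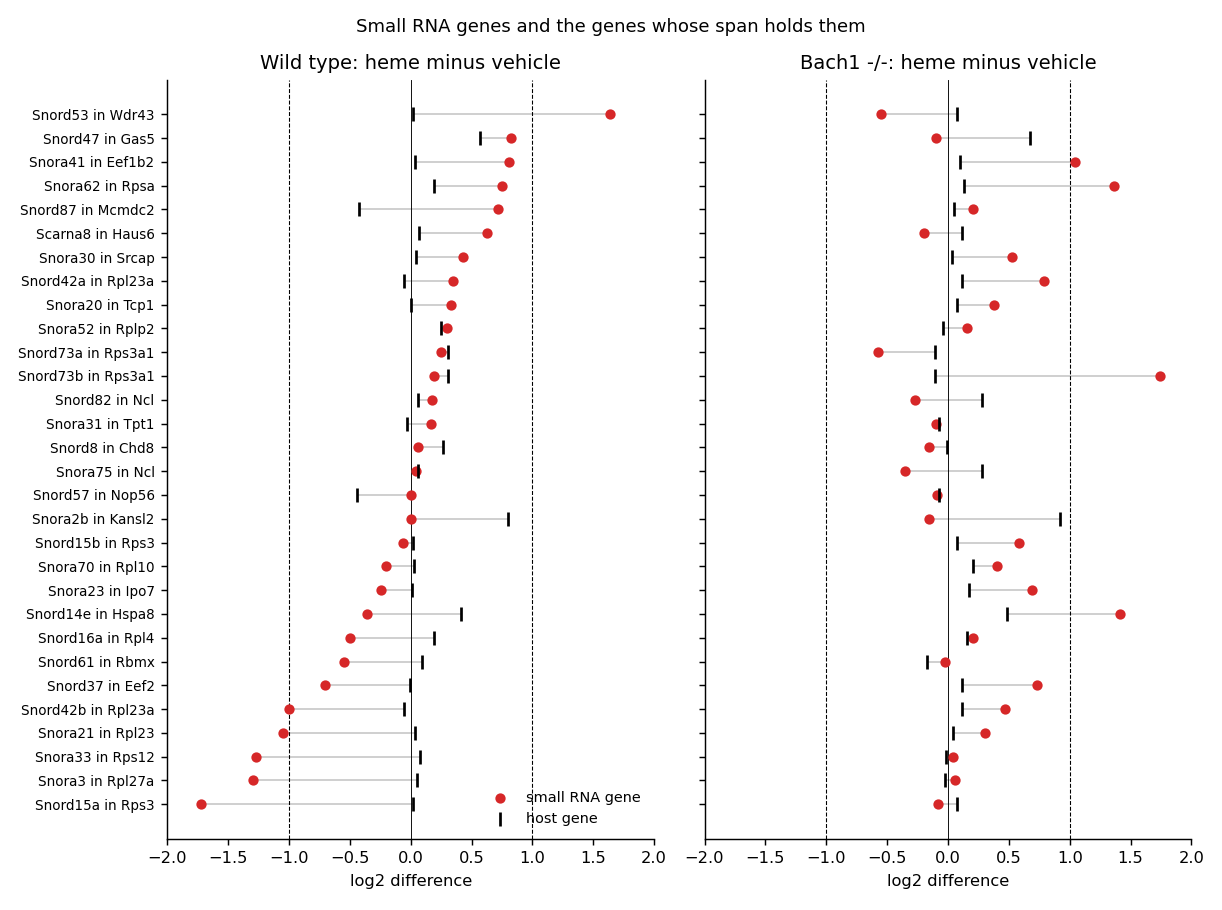
Log2 heme-minus-vehicle difference of 30 members (red points) and of the gene whose span holds each (black ticks), 1 row per pair, for each genotype. Most ticks stay near 0, with a median absolute difference of 0.06 for wild type and 0.11 for the labelled knockout, while the red points spread past 1 in both directions in wild type.

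Members of the same host did not always go together either. In 10 hosts with 2 members each, the members' heme differences had opposite signs in 4 hosts for wild type and 3 for the labelled knockout. Snord73a and Snord73b of Rps3a1 were 2.31 apart in the labelled knockout, since Snord73a, at 12.8, 15.1, 24.6 and 16.6, had its highest signal on the array where Snord73b had its lowest. Snord15b of Rps3, at 85.2, 81.5, 66.7 and 99.7, was nearly level with heme in wild type (-0.06), and lay 1.66 from Snord15a. Snord42a and Snord42b of Rpl23a were 1.34 apart in wild type, both at low signal. Snord49b, at 289, 392, 342 and 323, lay 1.04 from its neighbour Snord49a in the labelled knockout. Snora75 and Snord82 of Ncl, in contrast, stayed within 0.23 of each other in the comparisons of 2 arrays, and Snord95 and Snord96a of Rack1 within 0.25.

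The messages for the proteins that build and carry these RNAs differed less between arrays than the RNAs did. No protein was measured. Of 76 listed genes for snoRNP, scaRNA, Y RNA and U RNA proteins and their transcription and processing factors, 75 were measured. For heme, 0 of the 71 at level were called in wild type and 0 of 73 in the labelled knockout (backgrounds 2.06% and 1.65%). Between genotypes, 0 of 71 were called in vehicle and 1 of 73 was higher with heme (backgrounds 1.67% and 1.49%). Counts this small do not set the list apart from all genes. The 1 called was Dkc1, for the pseudouridine synthase of H/ACA particles, which read 33.8, 39.8, 49.6 and 88.5 (log2 1.15). The median difference over the 75 was -0.02 and 0.05 for heme in wild type and the labelled knockout, and -0.05 and 0.09 for genotype in vehicle and heme. Pih1d1, a factor of snoRNP assembly, had the largest heme difference of the 75 in wild type, at -0.82, and stood at -0.80 in the labelled knockout. Nop58, a core protein of C/D particles, read 87.1, 54.1, 50.9 and 60.8 and was lower with heme in wild type (-0.69). That difference lay inside the range of coding genes of equal signal. The 5 C/D core genes ranged from -0.69 to 0.29 in that comparison, with a median of -0.13. The message for Ro60, the Y RNA binding protein, was higher in the labelled knockout with heme (0.59), where both Y RNAs were lower. That 0.59 lay inside the range of coding genes of equal signal, as did the -0.49 of Rny3. The 3 listed Y RNA binding genes ranged from -0.10 to 0.59 there, with a median of -0.08.

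Of 19 listed noncoding host genes, 6 were measured. Snhg11 was the one called, in both genotypes, at 32.3, 86.6, 40.7 and 109 with heme differences of 1.43 and 1.41. Snhg5 read 142, 211, 143 and 205, with heme differences of 0.57 and 0.52. With Gas5, these were higher with heme in both genotypes by similar amounts. The other 3, Snhg15, Snhg16 and Snhg17, lay between -0.03 and 0.45 in wild type and between -0.43 and 0.56 in the labelled knockout.

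A further 61 probe sets listed a member together with other symbols, and no single gene can be assigned to them. The U RNA families among them could still be set beside the named genes. The 4 probe sets shared by U3 copies held a single profile, 211, 418, 259 and 398, with heme differences of 0.98 for wild type and 0.62 for the labelled knockout. Rnu3a by contrast stood at 1.15 and -0.03. The 7 probe sets shared by U2 copies, which also list a coding gene, had median signals of 259, 432, 295 and 287 (0.74 and -0.04). The 9 shared by U1 copies had 85.1, 107, 101 and 141 (0.33 and 0.48). In all of these the wild-type vehicle array was the lowest, as it was in 9 of the 10 named genes. The U2 and U1 sets held only 4 and 3 distinct profiles. Of the other shared probe sets, that array was the lowest in all 24 of Snord116, described next, and in 2 of the remaining 17.

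The probe sets shared by Snord116 copies gave a different picture. These C/D box RNAs come from an imprinted tandem array known chiefly from neurons and from Prader-Willi syndrome. Their 24 probe sets, which hold 7 distinct profiles and also list another transcript, had median signals of 8.13, 9.75, 44.4 and 40.0. Both labelled knockout arrays lay above both wild-type arrays in the median, by 2.45 log2 in vehicle (5.46-fold) and 2.04 with heme (4.11-fold). Each of the 24 was higher in the labelled knockout by at least 1.33 in either treatment. The wild-type signals were far below the median of all values, and copies of 1 tandem array are not independent of each other.

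**Figure D5:**
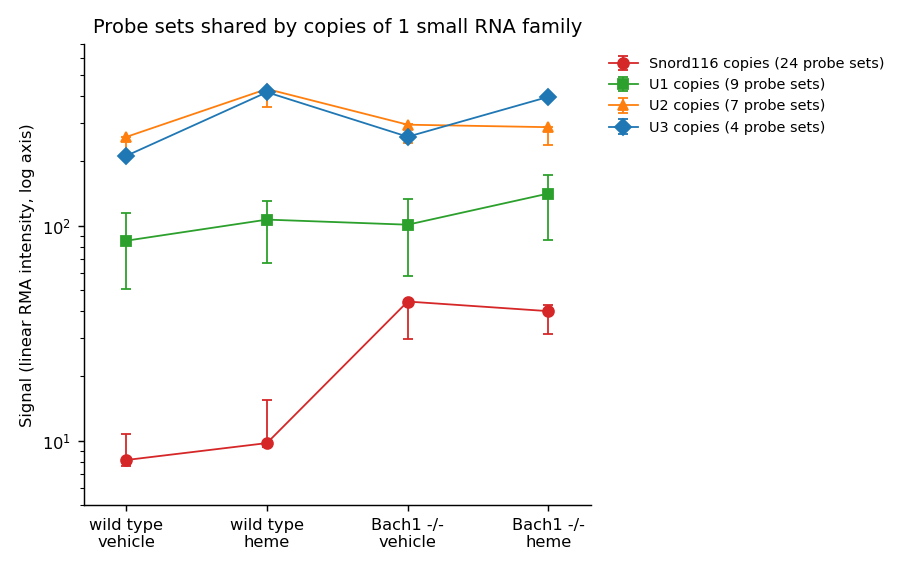
Median signal (log axis) of probe sets shared by copies of Snord116, U1, U2 and U3 on each of the 4 arrays, with bars from the lowest to the highest probe set. Snord116 sets sit near 8.13 and 9.75 on the wild-type arrays and near 44.4 and 40.0 on the labelled knockout arrays, and levels of different families cannot be compared with each other.

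Some properties of the extraction and of the genes are set beside these results here. The RNA was isolated on RNeasy columns, a kind of silica column known to hold back short RNA only in part, and 57 of the 61 genes are 200 nucleotides long or less. Rnu3a, Scarna13, Snora73a and Snora73b are the longer ones. The wide spread was not limited to dim members, since the 32 with a mean at level had a robust SD of 0.48 for heme in wild type, against 0.28 for coding genes of equal signal, and the other 29 had 0.62 against 0.24. Of 291 microRNA genes on the same arrays, 9.97% stood outside coding genes of equal signal for heme in wild type. The share among the members was 34.4%, and the difference between these shares was not tested. Whether recovery of short RNA differed between the 4 extractions was not tested.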

How the data were processed

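Per the labels, biotinylated cRNA was made from total RNA with the Ovation PicoSL kit. The deposited values are linear intensity per probe set, made by the authors with RMA per the submitters' processing notes, which name no version. The series' design text describes sorted progenitors and the program ArrayStar. That conflicts with what each sample is labelled as, and the sample labels were followed. Of 35556 probe sets the array annotation listed 23410, of which 21789 had a single symbol and 1621 several. The brightest probe set stood for a gene, which left 19938 genes, 18556 of them protein-coding by the RefSeq table. Of the columns of values, 0 were left out. No scaling was added, and intensities were taken to log2.

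With 1 array per group no test was run. Each of the 5 comparisons was described by log2 differences, counts at 2-fold with the brightest compared array at the median of all values (31.0), and the robust SD (1.4826 times the median absolute deviation) of coding genes in 20 bins of signal. Named are all Scarna, Rny and Rnu genes. Among Snora and Snord genes, those named were at 2-fold at level, among the 5 largest differences or 5 brightest of their class, within 0.1 log2 of 2-fold, or shared a host with such a gene. From lists, genes at 2-fold or the 2 largest differences were named. The members and lists were chosen with earlier results of these data known. Host genes were those whose span in the RefSeq table holds the member. Alternatives changed the fold, the level, the normalization, an offset before log2, the probe set, the bins, the coding comparator and the class of U3. The steps were tested on simulated data. The tools were numpy 2.4.6, scipy 1.17.1, pandas 2.3.3, matplotlib 3.10.9 and statsmodels 0.14.6 under Python 3.11.15.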

Additional observations from a re-analysis of the deposited data

Results flagged for a closer look

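In 12 members at level, the heme differences of the 2 genotypes had opposite signs and lay at least 2-fold apart. The share of all genes meeting both conditions was not counted. Without regard to sign, 13 of 39 members at level and 2.04% of 11155 named genes lay at least 2-fold apart. The difference was not tested in any of the 12 members, since each group holds 1 array. Labelled knockout minus wild type, it was -2.78 for Rny1, -2.19 for Snord53, -1.21 for Rny3, -1.18 for Rnu3a and -1.17 for Rnu12. It was 1.78 for Snord14e, 1.40 for Snord104, 1.35 for Snora21, 1.35 for Snora3, 1.31 for Snora33, 1.18 for Snord49a and 1.02 for Snord22. For Rnu3a, Snora3 and Snora33 the opposite sign rested on a very small labelled knockout difference, at -0.03, 0.05 and 0.04.

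A signal also stood in probe sets outside the gene comparisons. The 24 probe sets shared by Snord116 copies were higher in the labelled knockout by a median of 2.45 log2 in vehicle and 2.04 with heme, and no single gene can be assigned to them.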

How the results depend on the processing

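No paired analysis was possible because each group holds 1 array. At 2-fold and at level the counts of members were 7 for heme in wild type, 3 for heme in the labelled knockout, 3 for genotype in vehicle, 4 for genotype with heme and 13 for the difference of the heme differences. In that order they were 12, 10, 10, 15 and 22 at 1.5-fold, and 2, 1, 1, 1 and 3 at 3-fold. Without the level filter genotype in vehicle gave 7. With level at the 75th percentile (a signal of 106), heme gave 3 and 1, genotype with heme 2 and the difference of differences 5. With 16 added before log2, the last of these were 2 and 8. With 32 added, heme gave 3 and 1, genotype with heme 1 and the difference of differences 7, and the median heme difference in wild type went from 0.17 to 0.073. With level set on the mean of the 4 arrays, chosen after seeing the data, heme in the labelled knockout gave 1. Of the 30 called member values, 30 were still at 2-fold after lowess centring and after quantile normalization applied again, 29 with probe sets averaged per gene, 20 with 16 added and 14 with 32 added, and 0 changed sign. Signal over background is unknown, which limits the dim members most.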
